A study of Homo sapiens with 2 samples.

Results

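The genes described here are 5 genes of SR and SR-related proteins (SRSF2, SON, SRSF9, SRRM2 and PNISR) and 5 genes that overlap them on the other DNA strand (MFSD11, DONSON, GART, GATC and SRRM2-AS1). They were picked by name, with their counts already known, and are 10 of the 58347 genes in the table. Counts came from 2 biological replicates of a single group, the human erythroleukemia line HEL, untreated, in which RNA crosslinked by ultraviolet light to the splicing factor U2AF2 was recovered with an antibody and sequenced (eCLIP). No input or control library was analysed here, so every value is a level of recovered reads and not an enrichment. The gene totals were 995428 counts in replicate 1 and 1350116 in replicate 2, of which the 10 genes held 0.767% and 0.807%. Levels are given as CPM, which is counts scaled to library size. A gene with 0 counts could have up to 2.98 CPM in the first library and 2.25 CPM in the second. Those limits, and the intervals below, cover counting error only and not variation between libraries. PCR copies of one molecule may have been counted more than once, which would make the limits and intervals too narrow.

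SR proteins carry RNA-recognition domains and tails rich in arginine and serine, and they bind exons and help the spliceosome to choose splice sites. U2AF2, the large subunit of U2AF, binds the pyrimidine-rich tract just before the AG at the end of an intron, the 3' splice site, and many SR protein genes control their own amount through alternative splicing of their transcripts. SRSF2 and SRSF9 are classical SR proteins, SON and SRRM2 are very large scaffold proteins of nuclear speckles, where splicing factors gather, and PNISR is a partner of the speckle protein pinin. The overlapping genes do unrelated work. MFSD11 belongs to a family of membrane transporters, DONSON acts at DNA replication forks, GART is an enzyme of purine synthesis, GATC is a subunit of the mitochondrial enzyme that makes glutaminyl-tRNA, and SRRM2-AS1 is a non-coding antisense RNA.

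The 5 loci differed in how the neighbours lie, by the gene models of GENCODE 29 (GRCh38). SRSF2 (chromosome 17, 76734115 to 76737374, minus strand) and MFSD11 (76735865 to 76781449, plus strand) overlap head to head over 1510 bases, and MFSD11 exons cover 1349 bases of the SRSF2 span. SON (chromosome 21, 33542618 to 33577481, plus strand) overlaps DONSON (33559542 to 33588708, minus strand) tail to tail over 17940 bases, but DONSON exons cover only 795 of them. At its other end SON meets GART (33503931 to 33543491, minus strand) head to head over 874 bases. SRSF9 (chromosome 12, 120461668 to 120469793, minus strand) and GATC (120446438 to 120463749, plus strand) meet tail to tail over 2082 bases, all of them inside a GATC exon. SRRM2 (chromosome 16, 2752329 to 2772538, plus strand) overlaps SRRM2-AS1 (2737076 to 2752600, minus strand) head to head over 272 bases. PNISR (chromosome 6, 99398051 to 99425331, minus strand) has 1 opposite-strand gene, the antisense RNA AL513550.1 (99424922 to 99431373), which crosses its first bases. The overlapping exons belong to a minority of the transcripts of each neighbour among the 10 genes, 4 of 20 for MFSD11, 2 of 13 for DONSON, 6 of 18 for GART, 1 of 3 for GATC and 2 of 5 for SRRM2-AS1.

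Some of these neighbouring exons lie across from 3' splice sites of the SR gene, the kind of place where U2AF2 binds. A 3' splice site was taken as the last base of any annotated intron of at least 30 bases. MFSD11 exons cover 3 of the 5 sites of SRSF2, DONSON exons cover 4 of the 19 sites of SON, and the GATC exon covers 1 of the 4 sites of SRSF9. GART, SRRM2-AS1 and AL513550.1 exons cover none of the 19, 23 and 15 sites of SON, SRRM2 and PNISR. The 8 covered sites are shown because they are where the neighbour's exons and a known type of U2AF2 target share the same bases. Each line gives 27 intron bases and 3 exon bases on the strand of the SR gene, 5' to 3', read from GENCODE 29 transcripts, with the longest unbroken run of C and T in capitals.
SRSF2 site 1 (chr17:76736462-76736491, minus strand): cgctgtgcttgctcgTCCCgcccgcagccc
SRSF2 site 2 (chr17:76736441-76736470, minus strand): ccgcagCCCTaggcggcgtcgccgcagccg
SRSF2 site 3 (chr17:76735873-76735902, minus strand): caacgtctgcaTTTTCCCCCTTTaaagctg
SON site 1 (chr21:33559560-33559589, plus strand): ttaattaagaaacactttaTTTTTTagatt
SON site 2 (chr21:33573281-33573310, plus strand): acattttaCCTTTCTTTCTTTggataggat
SON site 3 (chr21:33575569-33575598, plus strand): tatttagtgaacaaTTTTTTTTTaaaggtc
SON site 4 (chr21:33575751-33575780, plus strand): aaaactgggtaTTTCTCCCCCCTgcaggca
SRSF9 site 1 (chr12:120462160-120462189, minus strand): CTCTTTTTgtttttgtttgcatttcagggt

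All 8 introns end in AG, but their tracts differ. Of the 25 bases before the AG, 21 were pyrimidines at the SRSF9 site, and between 14 and 19 at the others. The longest run was 13 bases at SON site 2 and 12 at SON site 4 and SRSF2 site 3, against 4 at SRSF2 sites 1 and 2. SRSF2 site 1 lies 909 bases from the start of the gene and is used by 5 annotated transcripts, and site 2 lies 930 bases from the start and is used by 2. SRSF2 site 3 is used by 2 transcripts, none of them protein-coding. SON sites 3 and 4 are used by 13 transcripts each and lie under an exon of a protein-coding DONSON transcript, while sites 1 and 2 lie under exons of a DONSON transcript annotated as subject to nonsense-mediated decay. These are matches between gene models, and the counts per gene do not show where within a gene a read lay.

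**Figure D1:**
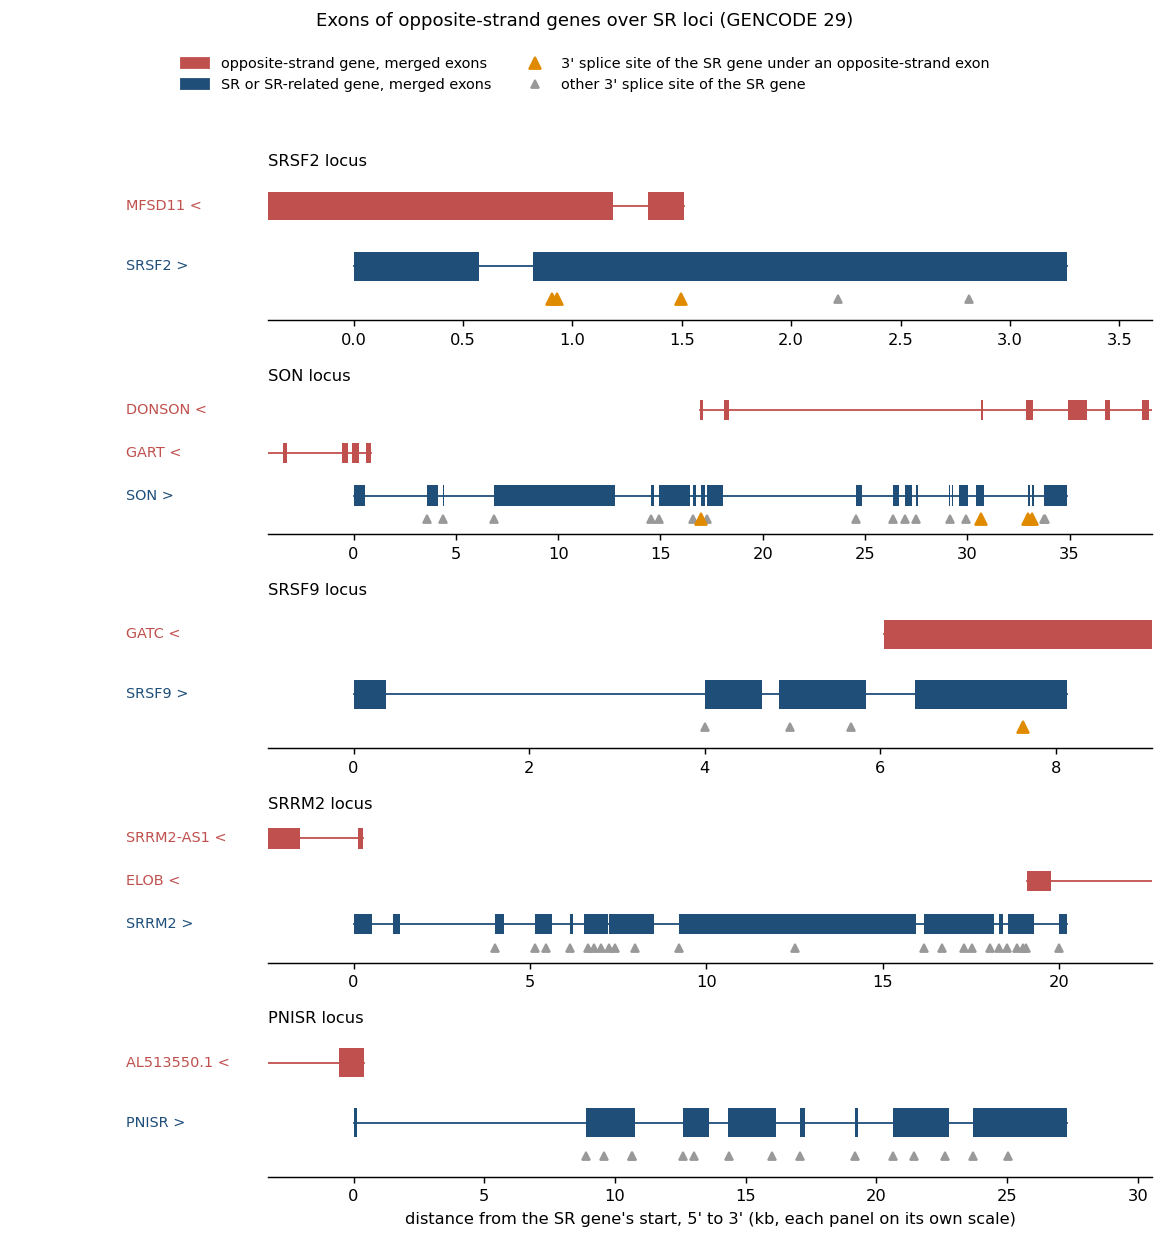
Gene models at the 5 loci, drawn to scale along the SR gene from its start (x axis, kb, a separate scale in each panel). Red bars are merged exons of opposite-strand genes, blue bars those of the SR or SR-related gene, ">" and "<" give the direction of transcription, and triangles are 3' splice sites of the SR gene, orange where an opposite-strand exon covers them. Orange triangles appear in the SRSF2, SON and SRSF9 panels, with 3, 4 and 1 of them.

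Of the reads counted on SRSF2 and MFSD11, nearly all were counted on MFSD11, over its whole length and not the overlap alone. MFSD11 held 4064 counts in replicate 1 and 5958 in replicate 2, against 19 and 39 for SRSF2. MFSD11 thus took 99.5% of the reads of the pair in replicate 1 (exact Clopper-Pearson 95% interval 99.3 to 99.7) and 99.3% in replicate 2 (99.1 to 99.5). Per kb of merged exon, MFSD11 averaged 645 ± 47.0 CPM and SRSF2 7.97 ± 2.44 CPM (SD, n = 2 each). The log2 ratio of the neighbour to the SR gene, per kb of exon and with 0.5 added to each count, was 6.34 ± 0.33 (SD, n = 2). By counts per kb of exon MFSD11 stood at place 6 and SRSF2 at place 2584 of 19817 protein-coding genes.

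SON showed one neighbour with many reads and one with few. DONSON held 2047 and 2898 counts, GART 61 and 95, and SON itself 49 and 68. The DONSON share of the reads of DONSON and SON was 97.7% in both replicates (exact 95% interval 96.9 to 98.3 in replicate 1 and 97.1 to 98.2 in replicate 2). Per kb of merged exon the levels were 598 ± 28.9 CPM for DONSON, 8.50 ± 0.981 CPM for GART and 3.78 ± 0.129 CPM for SON (SD, n = 2 each). The log2 ratio per kb to SON was 7.29 ± 0.02 for DONSON and 1.16 ± 0.12 for GART (SD, n = 2 each). GART, the head-to-head neighbour whose exons cover no SON 3' splice site, took 55.5% of the reads of GART and SON in replicate 1 (exact 95% interval 45.7 to 64.9) and 58.3% in replicate 2 (50.3 to 65.9). The replicate 1 interval includes equal shares and the replicate 2 interval lies just above them.

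The SRSF9 locus lay between. GATC held 1248 and 1598 counts, against 82 and 106 for SRSF9. The GATC share was 93.8% in both libraries (exact 95% interval 92.4 to 95.1 in replicate 1 and 92.5 to 94.9 in replicate 2). Per kb of merged exon GATC averaged 276 ± 6.27 CPM and SRSF9 21.5 ± 0.344 CPM (SD, n = 2 each), a log2 ratio of 3.67 ± 0.01. SRSF9 was the highest of the 5 SR and SR-related genes per kb of exon. By counts per kb of exon GATC stood at place 33 of the protein-coding genes and SRSF9 at place 1230.

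SRRM2 held more counts than either of its neighbours, but less per kb of exon than the neighbour at its 3' end. SRRM2-AS1 held 16 and 21 counts, against 40 and 88 for SRRM2. The SRRM2-AS1 share was 28.6% in replicate 1 (exact 95% interval 17.3 to 42.2) and 19.3% in replicate 2 (12.3 to 27.9). Per kb of merged exon the 2 genes were closer, with 2.71 and 2.69 CPM for SRRM2-AS1 and 2.99 and 4.98 CPM for SRRM2. Their log2 ratio, -0.49 ± 0.53, was smaller than its SD. At its 3' end SRRM2 also overlaps ELOB, the elongin B gene, tail to tail over 1125 bases. ELOB held 25 and 29 counts over its much shorter exons, and these likewise cover no SRRM2 3' splice site. Of the ELOB exon bases 61.1% lie inside the SRRM2 span. Per kb of merged exon ELOB averaged 20.6 ± 1.91 CPM and SRRM2 3.98 ± 1.40 CPM (SD, n = 2 each), a log2 ratio of 2.43 ± 0.65.

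PNISR was the lowest of the 10 genes per kb of exon, and alone among them had fewer than 10 counts in a library. Its antisense gene AL513550.1 held 233 and 340 counts, against 9 and 23 for PNISR. The AL513550.1 share was 96.3% (exact 95% interval 93.1 to 98.3) and 93.7% (90.6 to 95.9) of the reads of the pair. Per kb of merged exon AL513550.1 averaged 148 ± 10.3 CPM and PNISR 1.20 ± 0.542 CPM (SD, n = 2 each), a log2 ratio of 6.97 ± 0.54. This high ratio came with no covered 3' splice site, and the AL513550.1 exon lies across from 117 bases of PNISR exon and 293 bases of intron.

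**Figure D2:**
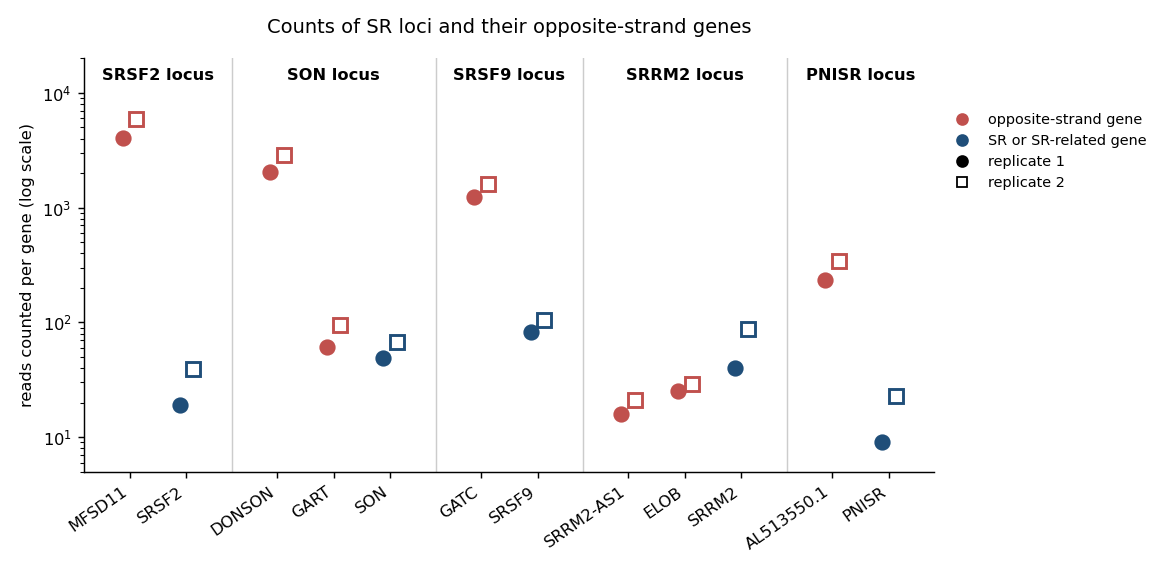
Reads counted per gene (y axis, log scale) at each locus, with opposite-strand genes in red and SR or SR-related genes in blue. Filled circles are replicate 1 and open squares replicate 2. MFSD11, DONSON and GATC lie above 1000 counts in both libraries, and no SR or SR-related gene reaches more than 106.

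Of the 10 genes, 9 reached 10 counts in both libraries, against 15.4% of all genes in the table. Because the genes were picked for their counts, nothing is read from that share. The ratios were also set against all 5049 ordered pairs of overlapping protein-coding genes on opposite strands, taking a neighbour as any gene with an exon inside the span of the other and summing both libraries. DONSON over SON exceeded 96.2% of those pairs, MFSD11 over SRSF2 93.3%, GATC over SRSF9 81.3%, ELOB over SRRM2 71.5% and GART over SON 60.2%. A pair can enter in both orders, and each of these ratios has the gene that was higher per kb on top. Places above the middle therefore follow in part from that order and are a description only. Higher ratios than that of DONSON over SON were held by 190 other pairs, and 337 pairs exceeded MFSD11 over SRSF2. The strand setting of the counting step is not given in the sources used here. It is therefore uncertain from which of 2 overlapping genes a read came. Of the uniquely mapped reads, 97.3% in replicate 1 and 97.4% in replicate 2 were tallied as lying in no gene feature, and genes held 2.66% and 2.60%. The shares above therefore describe how this small counted fraction was assigned, and the part of the strand setting in them was not tested. Whether reads in introns were counted on a gene is not given either, so the no-feature tally may include them. Intron reads of an SR gene could then be missing from its count, while a neighbour's exon over the same bases is counted. The part of this in the ratios was not tested. Reads tallied as ambiguous between genes came to 1.79 per 100 gene counts in replicate 1 and 1.77 in replicate 2.

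Pairs with counts most like those of the SR loci were sought among 5038 ordered coding pairs that hold none of the 10 genes, by distance over the 4 log2 CPM values of a pair (both genes, both libraries). Nearest to MFSD11 with SRSF2 was NEIL1 with MAN2C1, at a distance of 0.70, with 3727 and 5037 counts on the DNA repair gene NEIL1 and 26 and 27 on MAN2C1. TSPAN31 with AGAP2 and ABCB9 with ARL6IP4 followed at 1.85 and 1.93. Nearest to DONSON with SON was CLK3 with EDC3, at 0.08, with 2120 and 2928 counts on CLK3, a kinase that phosphorylates SR proteins, and 49 and 71 on EDC3. PPT1 with CAP1 and PAQR3 with BMP2K followed at 0.52 and 0.67. NEIL1 exons cover 8 MAN2C1 3' splice sites, ABCB9 exons 3 of ARL6IP4, CLK3 exons 2 of EDC3 and PAQR3 exons 1 of BMP2K, while TSPAN31 and PPT1 exons cover none.

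The link between covered 3' splice sites and counts was then described over the whole annotation, a comparison chosen after the loci had been seen. It takes every gene whose exons lie across from a coding gene transcribed the other way. The median over both libraries was 8 counts for 11215 genes whose exons cover 0 such sites, 51 for 1983 genes with 1, 129 for 585 genes with 2 and 301.5 for 508 genes with 3 or more. In replicate 1 the medians were 3, 22, 53 and 125.5, and in replicate 2 they were 4, 28, 75 and 178.5, so both libraries gave the same order. Genes with more covered sites also had more exon bases across from the other gene, with medians of 439, 793, 1457 and 2828.5 bases. The summed counts of the whole genes, divided by the kb of those bases only, were 77.9, 150.1, 187 and 226. Reads elsewhere in the genes are in these sums, so the values are not read densities on those bases. The part of exon length in this order was not tested, and genes are not independent replicates. Where a protein-coding gene lay on the same strand only, the medians were 0, 0, 1 and 3 counts for 0, 1, 2 and 3 or more of its 3' splice sites inside the exons, over 6311, 796, 216 and 238 genes. These genes were not matched to the others by gene type or exon length. Reads tallied as ambiguous between genes are in neither gene's count, so the part of strand in this difference was not tested.

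MFSD11, DONSON and GATC lay high within these classes, and SON and SRSF2 near or below the middle of theirs. The members had been picked with these same counts known, so their places are a description and no test. Among genes with 3 or more covered sites, 99.8% held no more counts than MFSD11 and 97.4% no more than DONSON, and among those with 1 site 99.4% held no more than GATC. SON exons themselves cover 3 DONSON sites and SRSF2 exons 1 MFSD11 site. SON lay at 36.4% of its class and SRSF2 at 51.9%. Among genes with 0 covered sites AL513550.1 lay at 98.3%, SRSF9 at 92.6%, GART at 91.0%, SRRM2 at 89.0%, ELOB at 78.3% and SRRM2-AS1 at 72.8%, so here SRRM2 stood above both of its neighbours and SRSF9 just above GART. These classes mix coding and non-coding genes. For protein-coding genes alone the median was 25 counts with 0 covered sites and 73.5 with 1, against 8 and 51 for all genes. SRSF2, with 58 counts over both libraries, lay below that coding median.

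**Figure D3:**
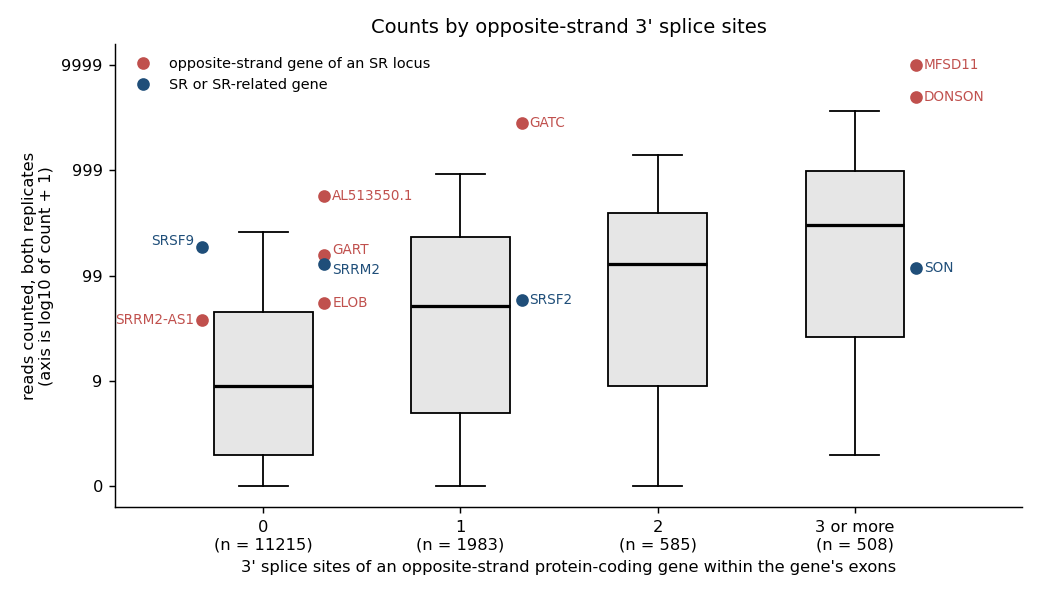
Reads counted over both replicates (y axis, log10 of count + 1) for genes grouped by the number of opposite-strand 3' splice sites inside their exons (x axis). Boxes span the quartiles with the median as a line, whiskers run from the 5th to the 95th percentile, and dots mark genes of the SR loci. Medians are 8, 51, 129 and 301.5 counts, and MFSD11, DONSON, GATC and AL513550.1 lie above the whiskers of their groups. The members shown were picked with their counts known.

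The 10 genes were next placed among all SR and SR-related genes, using textbook lists of 12 classical SR proteins and 49 SR-related proteins. A level of 10 counts in both libraries was reached by 5 genes of the classical list and by 16 (32.7%) of the SR-related list, against 24.8% of all protein-coding genes. The median was 8.5 counts in replicate 1 and 12 in replicate 2 for the classical list and 3 and 5 for the SR-related list, against 2 and 3 over all protein-coding genes. SRSF9, SRSF10 and SRSF2 led the classical list with 80.4 ± 1.29, 27.5 ± 1.78 and 24.1 ± 7.36 CPM (SD, n = 2 each). CACTIN, CDK13 and RSRP1 led the other list with 168 ± 5.18, 82.7 ± 20.5 and 73.2 ± 2.54 CPM (SD, n = 2 each), values that are not per length. CACTIN takes part in splicing and CDK13 is a kinase of RNA polymerase II. SRSF3, BUD13 and U2AF1 held 0 counts in both libraries. Reads that mapped to more than 1 place were 12801960 in replicate 1 and 16503606 in replicate 2. They are in no gene count, so 0 counts do not show that no read came from these genes.

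An opposite-strand gene with an exon inside the span was found for 32 of the 61 list genes, and in 25 of these 32 (78.1%) the opposite-strand genes together held more reads than the gene itself. Over all 9593 multi-exon protein-coding genes with such a neighbour the share was 57.3%. Equal counts, also 0 on both sides, were taken as not higher. In both libraries 3991 of all 19817 protein-coding genes held 0 counts, against 3 of the 61 list genes. The part of such genes in the 2 shares was not tested. The lists were drawn up with earlier results of these data known, so this is a description. Of the list genes, 8 had a 3' splice site under an opposite-strand exon, 3 of them being SRSF2, SON and SRSF9. Their opposite-strand genes held a median of 2232.5 counts over both libraries, against 119 for the 24 list genes with no covered site. Without the 5 SR and SR-related genes that had been picked with their counts known, the medians were 1038 counts for 5 genes and 119 for 22, and the opposite-strand genes were higher for 21 of 27 list genes (77.8%). The same medians over all protein-coding genes with a neighbour were 131.5 (2878 genes) and 21 (6715 genes). The 5 other list genes with a covered site were ZRANB2, CHERP, NKTR, CACTIN and SRRM4.

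ZRANB2 stood next to SRSF2 in this respect. Its antisense RNA ZRANB2-AS1 held 2829 and 4367 counts, against 3 and 4 for ZRANB2, a zinc finger protein with an SR-like tail. C19orf44 held 736 and 883 counts, against 53 and 51 for CHERP, with 3 CHERP sites covered. CACTIN-AS1 held 208 and 238 counts, against 173 and 219 for CACTIN, which makes this pair nearly even. For SRRM4, a neuronal splicing factor, the antisense gene held 0 counts in both libraries and SRRM4 itself 0 and 1. High neighbours also occurred without a covered site. AC015813.5 held 1062 and 1235 counts, against 12 and 12 for SRSF1, and PRMT5-AS1 567 and 758, against 0 and 1 for RBM23. AC025442.1 held 419 and 520 counts, against 1 and 5 for SREK1, and AC008735.2 301 and 453, against 18 and 30 for the U2AF2 gene itself.

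**Figure D4:**
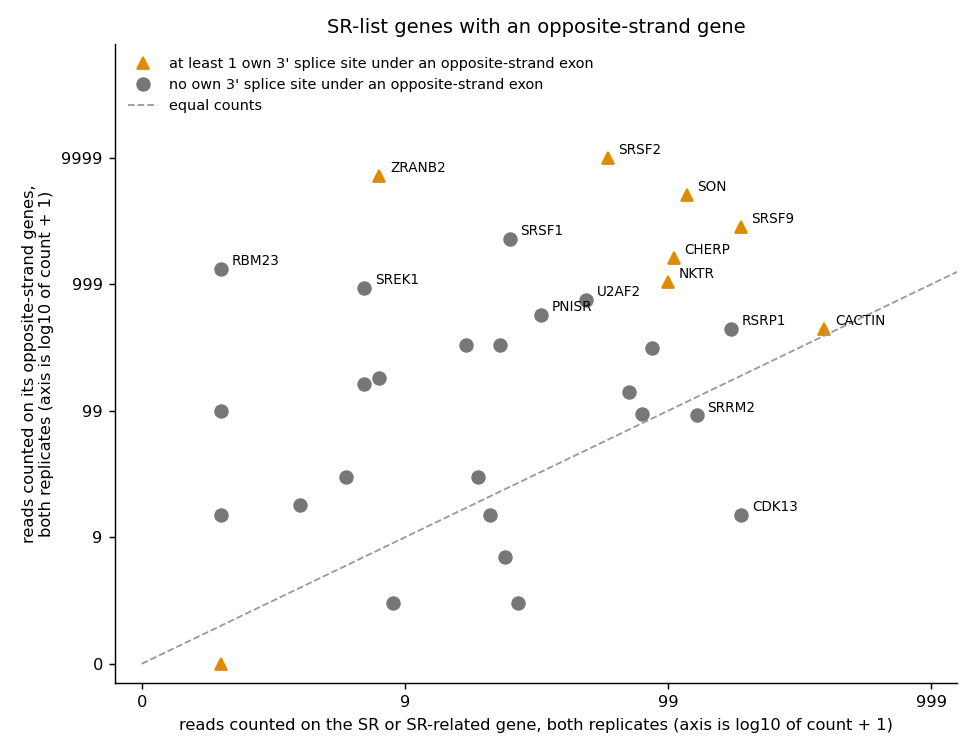
Reads counted on opposite-strand genes (y axis) and on the SR or SR-related gene itself (x axis), over both replicates and as log10 of count + 1, for the 32 list genes with an opposite-strand gene. Orange triangles have at least 1 own 3' splice site under an opposite-strand exon, grey dots have none, and the dashed line marks equal counts. Of the 32 genes, 25 lie above the line, and SRSF2, ZRANB2, SON and SRSF9 stand among the highest.

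The replicates were compared gene by gene at the scaled library sizes by an exact binomial test (two-sided, conditional on the sum), with Benjamini-Hochberg adjustment over the 8983 genes that reached 10 counts in both. Of these genes 0.501% were called at an adjusted p of 0.05, and of the 9 genes tested here 1 was called, MFSD11. MFSD11 had 4031 CPM in replicate 1 and 4469 CPM in replicate 2, a 1.11-fold difference (exact 95% interval 1.07 to 1.15, adjusted exact p = 0.000195). With so many reads a small difference passes a test of counting error alone, and the test compares 2 libraries and not conditions. SRRM2 differed more in size and was not called, with 39.7 CPM in replicate 1 and 66.0 CPM in replicate 2 (1.65-fold, exact 95% interval 1.13 to 2.48, adjusted exact p = 0.316). SRSF2 had 18.8 and 29.3 CPM (adjusted exact p = 0.776) and DONSON 2030 and 2174 CPM (adjusted exact p = 0.428). The other tested genes, SON, GART, GATC, SRSF9 and SRRM2-AS1, differed by 0.968-fold to 1.17-fold (with a prior count of 2), with adjusted exact p values of 0.907 or more. PNISR fell below the count minimum and was not tested, and its interval ran from 0.861-fold to 4.75-fold.

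**Figure D5:**
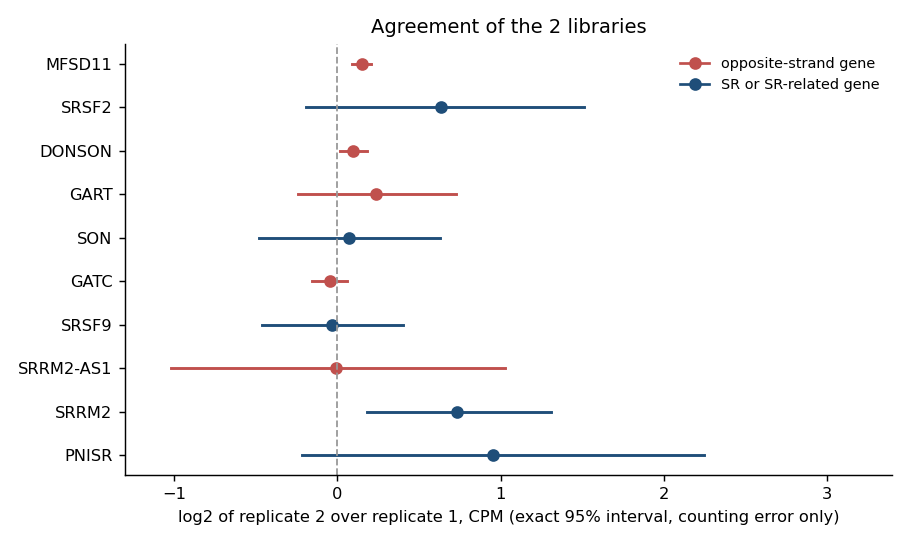
Log2 ratio of CPM in replicate 2 over replicate 1 (x axis) for each of the 10 genes, with exact 95% intervals for counting error. Red marks opposite-strand genes and blue SR or SR-related genes. The intervals of MFSD11, DONSON and SRRM2 exclude 0 before adjustment, and MFSD11 alone was called after adjustment over all genes.

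Markers of the cell line could not be checked firmly from these counts. Of 4 megakaryocyte markers only GP1BA reached 10 counts in both libraries, with 312 and 413 counts, while PF4 held 0. The T cell markers CD3E and CD3D together held 0 and 1 counts.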

How the data were processed

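Per the labels' protocols, HEL cells were crosslinked with ultraviolet light, RNA was trimmed with RNase I, U2AF2 complexes were immunoprecipitated and libraries were sequenced with paired ends. The cell line was taken from the sample source, since the cell line field holds the name U2AF2. The authors deposited raw counts per gene for both libraries. The tools named in the submitters' processing notes are STAR 2.7.0f and cutadapt, with the build GRCh38.p10. The counting step, strand setting, annotation release and duplicate removal are not given in the sources used here. Rows that name no gene (98.3% of all reads in both libraries) were left out.

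Of 58347 genes, 99.5% matched a GENCODE 29 (GRCh38) model by identifier without version, and symbols, coordinates and exons come from that release. Exons of all transcripts were merged. Library sizes were scaled by TMM in edgeR 4.0.16 under R 4.3.3 over genes that reached 10 counts in both libraries. Other steps used Python 3.11.15, scipy 1.17.1 and matplotlib 3.10.9. The exact test was tried on simulated counts that held counting error only. Variation between libraries was not simulated, so that trial does not show how the test behaves under it. The edgeR quasi-likelihood test needs a contrast between groups and was not used. Priors were 0.5 for ratios and 2 for replicate folds and the log2 CPM of nearest pairs.

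The members and gene lists were chosen with earlier results of these data known. Named genes were the members, the 3 highest genes of each list, list genes whose neighbour had at least 50 counts in each library (10 of 18, taken by neighbour level) and the nearest pairs. Genes outside the rule (NKTR, CACTIN-AS1, SRRM4, SRSF3, BUD13, U2AF1) were named after their values were seen. Replicates are separate biological replicates per the labels. Alternatives were other scalings, count minimums, priors, length measures and each replicate left out. The results of some marker genes are not reported here.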

Additional observations from a re-analysis of the deposited data

How the results depend on the processing

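The log2 ratios of neighbour to SR gene kept their sign under every alternative tried. Without length, from raw counts, they were 7.47 for MFSD11 over SRSF2, 5.39 for DONSON over SON, 0.40 for GART over SON, 3.91 for GATC over SRSF9, -1.67 for SRRM2-AS1 over SRRM2 and 4.24 for AL513550.1 over PNISR. Per kb of gene span the same ratios were 3.66, 5.64, 0.21, 2.82, -1.29 and 6.32, so their order depends on the length measure. With a prior count of 2, DONSON over SON was 7.26 and GATC over SRSF9 3.65. With a single replicate, MFSD11 over SRSF2 ranged from 6.11 to 6.58 and SRRM2-AS1 over SRRM2 from -0.86 to -0.12. Other scalings moved no member's mean CPM by more than its SD.

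The number of genes called between replicates was 45, and 71 with no count filter, where more genes were tested. MFSD11 stayed called under all 3 alternatives of that test, with adjusted exact p values from 0.000283 to 0.030. A minimum of 20 counts kept 7 of the 10 genes. The SR-list count of 25 ranged from 20 (of 25 genes, where the neighbour's exon must lie over an exon) to 30. In alternatives chosen after seeing the data, leaving out SRSF2, SON, SRSF9, SRRM2 and PNISR lowered the median of opposite-strand counts over list genes with a covered site to 1038, against 2232.5, and the gap in median counts between genes with 3 or more and 0 covered sites was 310 with sites of protein-coding transcripts only and 296 for protein-coding genes, against 293.5, and with a single replicate it was 245 and 349 (scaled to 2 libraries). No paired analysis was possible because there was 1 group. For SRSF2, PNISR and SRRM2-AS1, counts below 40 in each library limit precision.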
